A study of Mus musculus with 72 samples.

Results

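Livers of mice under night-restricted feeding were set against livers of mice with food ad libitum at a single time of day, ZT06 (zeitgeber time, hours after lights on, so the middle of the light phase). The comparison took every library that the labels give to these paradigms at ZT06: 3 night-restricted and 3 ad libitum libraries, 6 of the 72 libraries of the series. All 6 came from liver of wild-type male C57BL/6J mice bought from Charles River, with a starting age of 43-49 days, kept in 12 h of light and 12 h of dark with water always at hand. The 2 groups differed by the feeding paradigm alone in the labels. The other libraries held the same paradigms at ZT02, ZT10, ZT14, ZT18 and ZT22, and an arrhythmic and an incompletely adapted arrhythmic paradigm at all 6 times, 3 libraries in each of 24 groups. No label states the hours of food access or how long the schedule ran. Nor is it stated whether each replicate was its own animal, and the p-values therefore describe the spread between libraries, which may be technical. By its title, the study weighs the rhythm of eating against the hepatic clock in rhythmic gene expression, and by their names the 2 paradigms differ in whether food was at hand in the light phase.

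In liver, feeding and fasting act on partly separate gene programmes. Between meals, free fatty acids released from fat activate the nuclear receptor PPARA, which induces genes of fatty acid oxidation, omega-oxidation and acyl-CoA handling, while low insulin releases FOXO1 to act on genes such as Irs2, Igfbp1, G6pc and Pck1. After a meal, insulin and sterol-sensing SREBP factors raise genes of glycogen, fatty acid and cholesterol synthesis, and secretory load raises chaperones of the endoplasmic reticulum (ER). The circadian clock runs in the same cells as a loop of activators (ARNTL, CLOCK) and repressors (PER, CRY, NR1D1), with D-box factors such as DBP and TEF as its output.

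Each library was made by 3′ mRNA sequencing, in which reads come from the end of the transcript. Levels are in CPM (each gene's count scaled to a common library total), so a level carries no term for transcript length and levels are not compared between genes. Total counts were 4764513 to 7444703 in the night-restricted and 8847689 to 10727591 in the ad libitum libraries, within the range of 4342026 to 12286021 over the series. Night-restricted replicate 1 stood apart: it had the lowest total of the 6, 2.07% mitochondrial counts against 3.15 to 5.22% in the other 5, and a steep positive trend of its log2 deviations with transcript 3′-end GC content (GC slope) of 0.329, rank 3 of 72. The other night-restricted libraries had GC slopes of -0.0264 and 0.122, and the ad libitum libraries 0.184, 0.144 and -0.0636. Night-restricted replicate 1 also had the highest GC slopes of the series at ZT22 and ZT02 (0.383 and 0.33, ranks 1 and 2), and rank 4 at ZT18 (0.247). The 8 hepatocyte markers summed to 27963 to 33280 CPM in night-restricted and 25906 to 33904 CPM in ad libitum libraries. The summed levels of the markers of 13 cell types overlapped between the groups in 13 of 13 lists, among them Kupffer cells and macrophages with 898.5 to 2519 CPM under night-restricted and 1095 to 2041 CPM under ad libitum feeding. Ly6g (neutrophils), the pancreatic acinar markers Prss2, Cela3b, Ctrb1 and Cel, and the adipocyte markers Lep and Plin1 were at 0 in all 6 libraries. The other markers of these lists were not. Adipocyte markers summed to 11288 to 18412 CPM in night-restricted and 10337 to 20054 CPM in ad libitum libraries. Only 3 of the 8 adipocyte markers had enough counts to be tested. This sum therefore rests on few genes and cannot be read as a content of adipocytes. Acinar markers summed to 73.2 to 185.8 and 86.7 to 163.4 CPM, and neutrophil markers to 5.91 to 6.3 and 5.2 to 11.1 CPM. In bulk liver, fewer cells of a type and less RNA per cell cannot be told apart.

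No gene differed past the threshold between night-restricted and ad libitum feeding at ZT06. The edgeR quasi-likelihood test called 0 of 12712 genes (0%) at an adjusted p under 0.05 (Benjamini-Hochberg over all genes tested), and the lowest adjusted p was 0.319. At an unadjusted p under 0.05, it gave 391 genes (3.08%), 223 higher (1.75%) and 168 lower (1.32%). Other tools and fits called from 0 to 25 genes: DESeq2 called 2 genes (0.0157%, and 426 genes, 3.35%, at an unadjusted p under 0.05), Cyp2b9 and Acot3, and limma voom with library quality weights called 25 genes (0.197%, and 1631 genes, 12.8%, at an unadjusted p under 0.05). The differences were balanced around 0, with 6347 genes above it (49.9%) and 6365 below it (50.1%), and their median was 0.00 on the log2 scale. The scaling of the libraries assumes that most genes do not differ, so this balance is partly set by the scaling. The groups did not overlap in 597 genes (4.7%), with the 3 night-restricted libraries above all 3 ad libitum libraries in 312 (2.45%) and below them in 285 (2.24%).

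The absence of calls bounds the size of a difference for some genes and not for others. The 95% interval of the log2 difference reached a median of 0.73 to either side of the estimate (quartiles 0.55 and 1.04), from 3 libraries a group with the spread estimated over all 24 groups (48 residual degrees of freedom). It lay within 1 log2 unit of 0 on both sides for 6454 genes (50.8%), and for 4693 of the 6318 genes averaging 10 CPM or more (74.3%). For the remaining genes a difference of 1 log2 unit was not excluded by the interval. The median SD of log2 CPM between libraries was 0.469 under night-restricted and 0.39 under ad libitum feeding. The plot of difference against level shows the named genes on this background.

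**Figure D1:**
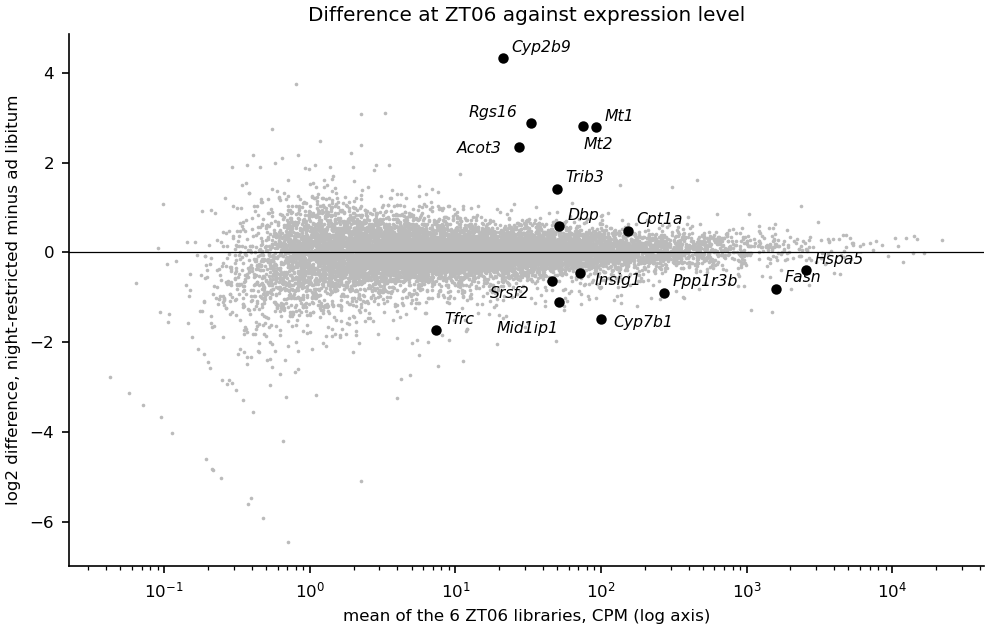
Log2 difference at ZT06 (night-restricted minus ad libitum) against the mean level of the 6 libraries in CPM on a log axis, 1 point per gene tested, with 16 named genes in black. Cyp2b9 at 4.33, Rgs16 at 2.88, Mt2 at 2.82, Mt1 at 2.79 and Acot3 at 2.35 lie above most genes of their level, and Cyp7b1 at -1.48 and Tfrc at -1.73 lie below most of theirs.

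Across the pathway lists, 0 of 496 tested genes passed the edgeR test, of 517 distinct genes in 33 lists. At an unadjusted p under 0.05 there were 20 higher and 20 lower genes among them, beside 1.75% and 1.32% of all genes. The 3 night-restricted libraries lay above the ad libitum libraries in 21 of them and below in 20, beside 2.45% and 2.24% of all genes. The interval lay within 1 log2 unit of 0 for 250 of the 496, beside 50.8% of all genes. Of the 126 genes written first in these lists (4 per list where the list had 4), 120 were tested and their differences ran from -2.54 (Tubb2b) to 4.33 (Cyp2b9), with 51 above and 69 below 0. Genes described below that are not among these were chosen after their values were seen.

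**Figure D2:**
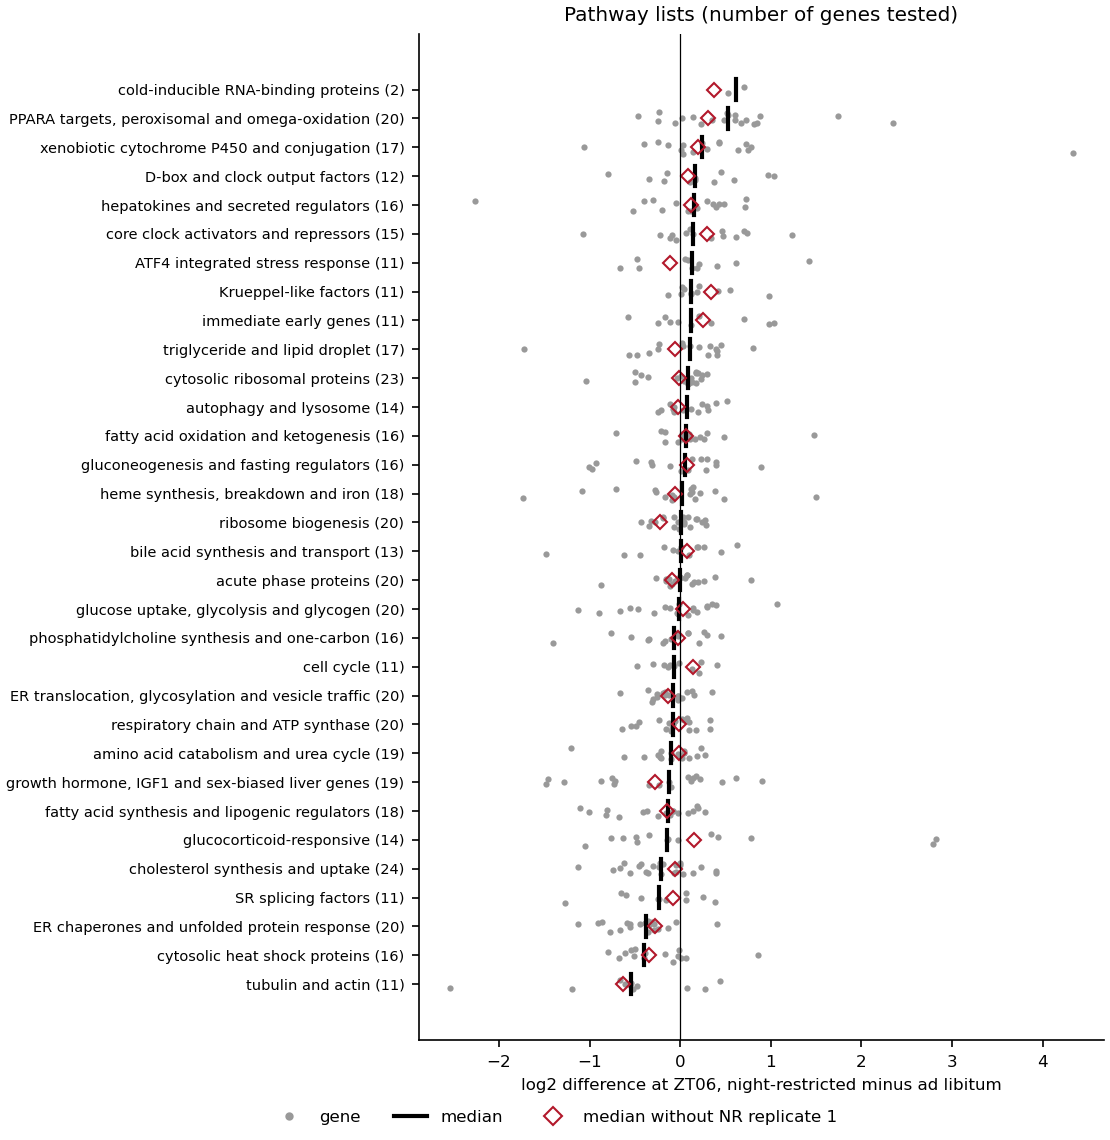
Log2 differences at ZT06 (night-restricted minus ad libitum) of the members of 32 pathway lists with at least 2 tested genes, with the list's median as a black bar and the median without night-restricted replicate 1 as a red diamond. PPARA targets have a median of 0.52 (0.31 without that library), ER chaperones -0.37 (-0.28) and tubulin and actin genes -0.54 (-0.63), while most lists have medians near 0.

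The metallothionein genes Mt1 and Mt2 encode small metal-binding proteins that are known to be induced by zinc, glucocorticoids and fasting in mouse liver. They are neighbours on chromosome 8 of GRCm38 (Mt2 at chr8:94172664-94173568 and Mt1 at chr8:94179082-94180327, both on the plus strand). Their promoter windows are shown because both genes stood among the largest differences. Each window runs from 250 bases before to 50 bases after the RefSeq start (GRCm38.p6, plus strand, chr8:94178839-94179138 for Mt1 and chr8:94172368-94172667 for Mt2), with capitals marking the letters TGCACNC or TGCGCNC on either strand, the core of the metal response element bound by MTF1.
Mt1: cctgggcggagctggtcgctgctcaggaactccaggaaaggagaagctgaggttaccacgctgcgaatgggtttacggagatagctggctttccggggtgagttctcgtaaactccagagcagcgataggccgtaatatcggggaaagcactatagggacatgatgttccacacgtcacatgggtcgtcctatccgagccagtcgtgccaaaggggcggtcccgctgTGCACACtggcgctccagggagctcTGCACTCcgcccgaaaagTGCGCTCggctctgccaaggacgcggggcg
Mt2: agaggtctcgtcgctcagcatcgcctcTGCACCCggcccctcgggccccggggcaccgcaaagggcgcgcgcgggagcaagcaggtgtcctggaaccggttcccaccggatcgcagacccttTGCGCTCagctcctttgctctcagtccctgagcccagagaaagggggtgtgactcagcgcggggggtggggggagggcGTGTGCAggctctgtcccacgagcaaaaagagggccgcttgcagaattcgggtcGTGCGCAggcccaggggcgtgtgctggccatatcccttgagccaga
The Mt1 window held 3 such cores and the Mt2 window 4, none overlapping another. Of 32851 promoter windows of the same length, 25.7% held at least 1 core and 1.97% held at least 3. Neither window held the E-box CACGTG (7.15% of windows), a D-box TTATGTAA or TTATGCAA (1.66%), the cAMP response element TGACGTCA (1.79%) or the FOXO letters TGTTTAC (3.65%). The core of the metal response element was added to the motifs after the values were seen, and a match is only a description of the letters.

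Mt1 had 180.0, 246.2 and 57.3 CPM in night-restricted replicates 1, 2 and 3, against 18.3, 35.8 and 16.2 CPM in the ad libitum replicates. Every night-restricted library lay above every ad libitum library, and night-restricted replicate 3 was the lowest of its group. The log2 difference was 2.79 ± 0.7 (SE, 95% interval 1.37 to 4.2), with an adjusted p of 0.477 by edgeR. Mt2 had 51.7, 277.8 and 67.9 CPM in the night-restricted replicates, against 9.13, 22.1 and 25 CPM in the ad libitum replicates. The groups did not overlap here either, but replicate 2 alone carried most of the night-restricted mean of 132.5 ± 126.0 CPM (SD, n = 3). Its log2 difference was 2.82 ± 0.77 (SE, adjusted p = 0.644). Without night-restricted replicate 1 the differences were 2.72 for Mt1 and 3.22 for Mt2. With library quality weights in limma voom they were 1.46 (adjusted p = 0.338) and 2.23 (adjusted p = 0.18). The 2 genes are near copies of each other, and reads could be split between them. The glucocorticoid-responsive list, which holds both genes, had 5 above and 9 below 0 of 14 tested with a median of -0.15, which was 0.15 without night-restricted replicate 1. In it Fkbp5, a chaperone of the glucocorticoid receptor, had a log2 difference of -0.03 (95% interval -1.02 to 0.95), and Tat, an amino acid catabolic enzyme, was at -0.49 (-2.18 to 1.21) and at 0.01 without night-restricted replicate 1.

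Rgs16 encodes a regulator of G protein signalling that is induced in periportal hepatocytes during fasting in mice. It lies at chr1:153740349-153745468 on the plus strand. It had 9.08, 132.4 and 32.3 CPM in night-restricted replicates 1, 2 and 3, against 3.83, 10.7 and 9.23 CPM in the ad libitum replicates. Replicates 2 and 3 of night-restricted feeding lay above all ad libitum libraries, and replicate 1 lay within their range, so the groups overlapped. The log2 difference was 2.88 ± 0.76 (SE, 95% interval 1.34 to 4.41, adjusted p = 0.618), and it was 3.39 without night-restricted replicate 1. Its lowest value over the alternatives was 1.41.

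PPARA targets lay above 0 more often than below it. Of 20 tested members, 0 were called, 16 had a log2 difference above 0 and 4 below it, against 49.9% above 0 over all genes. Their median was 0.52, against 0.00 for all genes tested. The 3 night-restricted libraries lay above all ad libitum libraries in 2 of the 20 (2.45% of all genes did) and below in 0. Without night-restricted replicate 1 the counts were 14 above and 6 below with a median of 0.31, and the median ran from 0.18 to 0.68 over the alternatives.

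The largest difference in this list was that of Acot3, an acyl-CoA thioesterase; these enzymes release free fatty acids from their CoA esters. Its neighbour Acot4 and the related Acot1 are in the same list, Acot2 in that of fatty acid oxidation, and Acot6 in none. Acot1 averaged 77.3 CPM under night-restricted and 70.2 CPM under ad libitum feeding, with overlap. The log2 difference of Acot1 was 0.14 (95% interval -0.38 to 0.66), and -0.10 without night-restricted replicate 1. Acot2, Acot4, Acot3 and Acot6 lie in this order on chromosome 12, from chr12:83987861-83993873 to chr12:84100654-84111349 on the plus strand. Acot3 had 83.7, 45.3 and 8.61 CPM in the night-restricted replicates, against 8.45, 13.5 and 5.13 CPM in the ad libitum replicates. Night-restricted replicate 3 lay within the ad libitum range and the other 2 far above it. The log2 difference was 2.35 ± 0.53 (SE, 95% interval 1.27 to 3.42, adjusted p = 0.319). Acot3 was called by DESeq2, and by edgeR without night-restricted replicate 3 (adjusted p = 0.0399). The difference was 1.62 without replicate 1 and 0.21 with quality weights in limma voom.

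Acot2, the mitochondrial member, had 11.8, 5.22 and 7.78 CPM in the night-restricted replicates, against 2.82, 3.01 and 2.91 CPM in the ad libitum replicates. The ad libitum libraries lay close together and all below the night-restricted ones. The log2 difference of Acot2 was 1.48 ± 0.43 (SE, adjusted p = 0.67). Acot6 had 16.1, 9.0 and 7.61 CPM under night-restricted and 6.08, 2.89 and 3.76 CPM under ad libitum feeding, again with no overlap, a log2 difference of 1.34 ± 0.39 and an adjusted p of 0.644. Acot4 had 59.2, 85.1 and 27.6 CPM under night-restricted and 32.0, 35.7 and 25.7 CPM under ad libitum feeding, with overlap, and a log2 difference of 0.88 that was 0.00 with quality weights. The 4 genes are close in sequence, and reads could be split between them.

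The omega-oxidation genes of the Cyp4a cluster showed wide spread under night-restricted feeding. Cyp4a10 had 1287, 735.6 and 392.1 CPM in the night-restricted replicates, against 590.0, 431.2 and 316.7 CPM in the ad libitum replicates, with overlap and a log2 difference of 0.85 (95% interval -0.06 to 1.77), or 0.36 without night-restricted replicate 1. Cyp4a14 had 4598, 4123 and 2602 CPM under night-restricted and 2622, 2374 and 2135 CPM under ad libitum feeding, with a log2 difference of 0.67 (-0.11 to 1.44). Only night-restricted replicate 3 of Cyp4a14 lay among the ad libitum values. Cyp4a31 had 33.8, 9.4 and 6.29 CPM under night-restricted and 5.41, 5.77 and 3.42 CPM under ad libitum feeding, with no overlap, and its log2 difference of 1.74 was 0.72 without night-restricted replicate 1. These genes are also near copies of each other.

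Several other PPARA targets had intervals that held 0. The peroxisomal enzyme gene Ehhadh had a log2 difference of 0.60 (95% interval -0.19 to 1.4). The lipid droplet coat gene Plin2 was at 0.52 and 0.03 without night-restricted replicate 1, where it had 1503 CPM against 427.3 to 899.4 CPM in the other 5 libraries. Angptl4, an inhibitor of lipoprotein lipase, had 231.4, 130.4 and 160.4 CPM in the night-restricted replicates, against 78.0, 147.0 and 90.0 CPM in the ad libitum replicates, with overlap and a log2 difference of 0.73 (-0.16 to 1.62), or 0.49 without night-restricted replicate 1. Fgf21, the hepatic fasting hormone, stayed under 1 CPM in all 6 libraries (highest 0.913 CPM), as did Pdk4, which restrains pyruvate oxidation (highest 0.676 CPM), so no difference was detectable at this depth.

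Of 16 genes of mitochondrial fatty acid oxidation and ketone synthesis tested, 11 lay above and 5 below 0 with a median of 0.07, and their differences ran from -0.71 to 1.48 (Acot2, above). The night-restricted libraries lay above all ad libitum libraries in 3 of them (2.45% of all genes), and 10 of the 16 intervals lay within 1 log2 unit of 0. Cpt1a, the entry step of mitochondrial oxidation, had 184.6, 194.2 and 157.1 CPM in the night-restricted replicates, against 121.8, 148.0 and 115.3 CPM in the ad libitum replicates. All night-restricted libraries lay above all ad libitum ones. The log2 difference was 0.48 ± 0.19 (SE, 95% interval 0.1 to 0.85), the adjusted p was 1, and the value was 0.47 without replicate 1. Ppara itself was at 0.29 (-0.65 to 1.23).

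**Figure D3:**
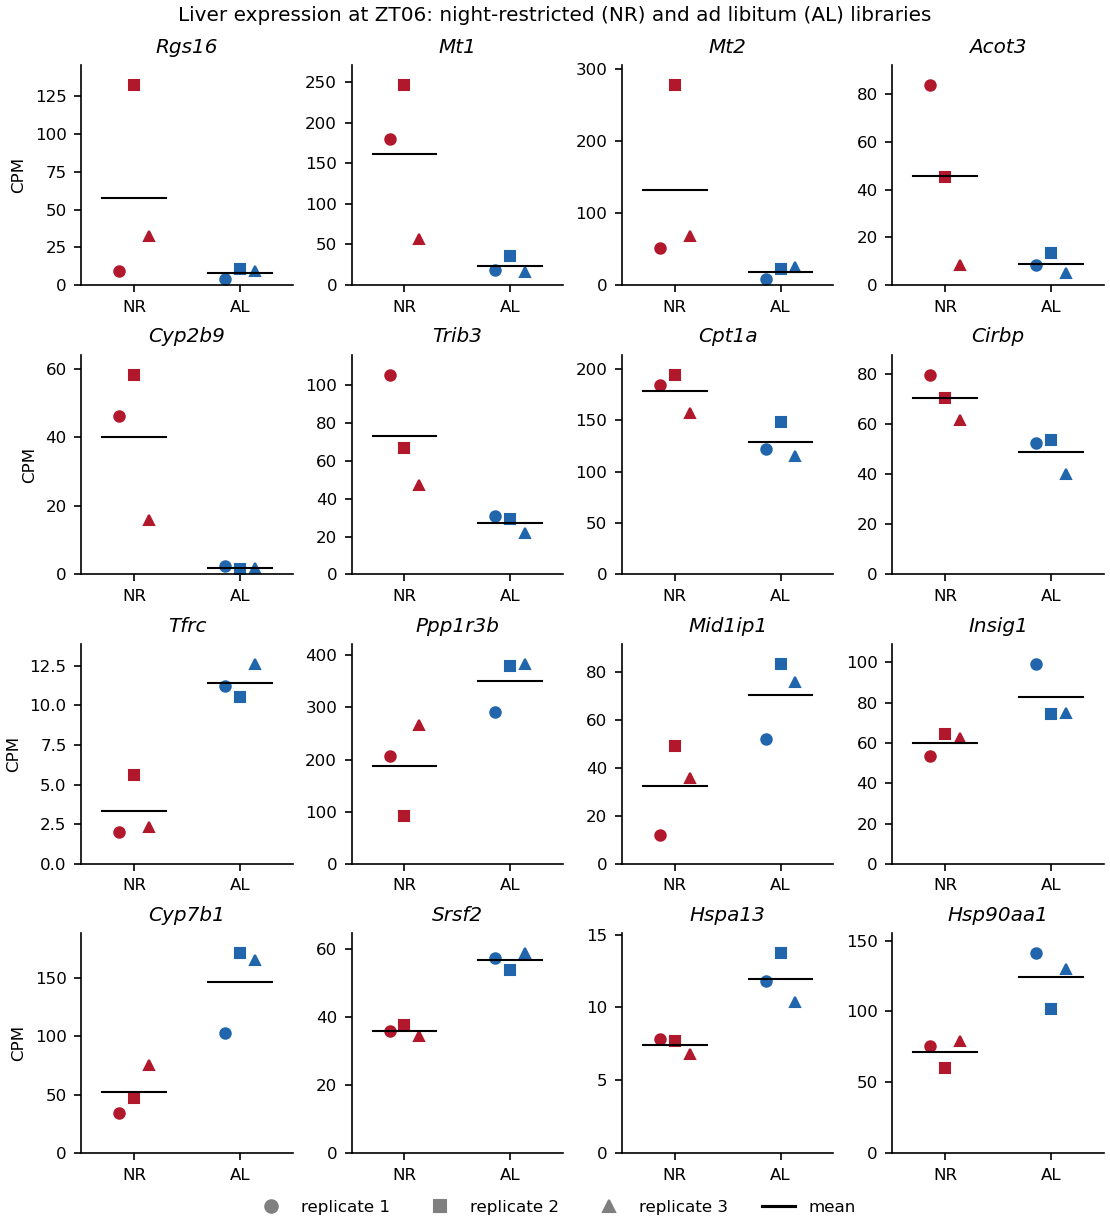
Levels in CPM of 16 genes in the 3 night-restricted (NR, red, left) and 3 ad libitum (AL, blue, right) libraries at ZT06, each axis starting at 0, with replicates as symbols and the mean as a line. In Mt1, Mt2, Cyp2b9, Trib3, Cpt1a and Cirbp the night-restricted libraries lie above all ad libitum ones, in the 8 genes of the lower rows they lie below them, and in Rgs16 and Acot3 the groups overlap.

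Genes of gluconeogenesis and of the FOXO1 response did not share a direction. Of 16 tested, 9 lay above and 7 below 0 with a median of 0.05. Irs2, the insulin receptor substrate that low insulin induces, had 10.6, 17.9 and 11.4 CPM in the night-restricted replicates, against 5.97, 7.81 and 7.78 CPM in the ad libitum replicates. There was no overlap, and the log2 difference was 0.89 ± 0.42 (SE, adjusted p = 1). Igfbp1 was at 0.40 with an interval of -0.76 to 1.56. Pck1, which makes phosphoenolpyruvate, had 50.9, 223.0 and 163.9 CPM in the night-restricted replicates, against 90.2, 79.2 and 716.4 CPM in the ad libitum replicates. Ad libitum replicate 3 alone was high, and without it the log2 difference was 0.81 in place of -1.01. The same library decided the sign of G6pc, glucose-6-phosphatase, which was at -0.31 with it and 0.01 without it.

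In the list of glucose uptake, glycolysis and glycogen, 9 lay above and 11 below 0 of 20 tested, with a median of -0.01. Ppp1r3b, the liver subunit that brings protein phosphatase 1 to glycogen and promotes its synthesis, lies at chr8:35375739-35388139 on the plus strand. It had 206.0, 92.4 and 265.3 CPM in the night-restricted replicates, against 291.7, 379.3 and 382.9 CPM in the ad libitum replicates. Every night-restricted library was below every ad libitum library. Its log2 difference was -0.90 ± 0.32 (SE, 95% interval -1.55 to -0.25, adjusted p = 1), and -0.96 without night-restricted replicate 1. In the arrhythmic and incompletely adapted arrhythmic libraries of the same time Ppp1r3b averaged 1003 ± 307 and 849.3 ± 137 CPM (SD, n = 3 each), above both groups compared here; these values were not tested.

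Of 18 lipogenic genes tested, 5 lay above and 13 below 0 with a median of -0.14, and of 24 genes of cholesterol synthesis and uptake 5 lay above and 19 below with a median of -0.21. In the cholesterol list the night-restricted libraries lay below all ad libitum libraries in 4 genes and above in 0, against 2.24% and 2.45% of all genes. The counts became 10 above and 14 below with a median of -0.06 without night-restricted replicate 1, and 12 above and 12 below with quality weights, also with a median of -0.06. The lipogenic list had 6 above and 12 below with a median of -0.15 without that library, and 7 above and 11 below with a median of -0.18 with quality weights.

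Insig1, which holds SREBP in the ER, had 53.4, 64.3 and 62.4 CPM under night-restricted and 99.1, 74.5 and 74.7 CPM under ad libitum feeding, with no overlap and a log2 difference of -0.46 ± 0.18. Idi1 and Fdps, enzymes of the isoprenoid steps, also had no overlap, at -0.62 and -0.38, with Idi1 under 2 CPM in all 6 libraries.

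Mid1ip1, a cofactor of acetyl-CoA carboxylase, had 12.1, 49.3 and 35.8 CPM in the night-restricted replicates, against 52.2, 83.5 and 75.9 CPM in the ad libitum replicates. The groups did not overlap, and the log2 difference was -1.11 ± 0.36 (SE, adjusted p = 0.999), or -0.71 without replicate 1. Fasn, fatty acid synthase, averaged 1162 ± 245 CPM under night-restricted and 2041 ± 689 CPM under ad libitum feeding (SD, n = 3 each), with a log2 difference of -0.81 and an interval of -1.87 to 0.25. Ad libitum replicate 3, at 1247 CPM, lay among the night-restricted libraries. Acaca, acetyl-CoA carboxylase, was at -0.11, and Srebf1, the lipogenic SREBP gene, was at -0.68 and 0.32 without ad libitum replicate 3.

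Among genes of bile acid and xenobiotic metabolism, Cyp2b9 had the largest positive difference of all genes tested. It encodes a cytochrome P450 of the CAR-responsive Cyp2b family that is higher in female than in male mouse liver. It had 46.1, 58.3 and 15.9 CPM in the night-restricted replicates, against 2.48, 1.68 and 1.79 CPM in the ad libitum replicates. The lowest night-restricted library was well above the highest ad libitum one, and the ad libitum values came from 14 to 22 counts. In the fit, the log2 difference came to 4.33 ± 0.99 (SE, 95% interval 2.35 to 6.31, adjusted p = 0.319). It was called by DESeq2 (adjusted p = 0.0374), and it was 4.24 without night-restricted replicate 1. Cyp2b10, of the same family, had 21.4, 16.3 and 14.7 CPM under night-restricted and 14.1, 9.26 and 7.09 CPM under ad libitum feeding. The groups did not overlap, and the log2 difference was 0.78 (-0.43 to 1.99).

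Cyp7b1, the oxysterol hydroxylase of the alternative bile acid pathway and a male-predominant gene of mouse liver, had 34.3, 47.0 and 75.5 CPM in the night-restricted replicates, against 103.0, 170.5 and 165.1 CPM in the ad libitum replicates. The groups did not overlap, with a log2 difference of -1.48 ± 0.44 (SE, 95% interval -2.36 to -0.6, adjusted p = 0.724). In the list of growth hormone, IGF1 and sex-biased genes, 8 lay above and 11 below 0 of 19 tested, with a median of -0.12. The xenobiotic list had 13 above and 4 below 0 of 17 tested with a median of 0.24, which ran from -0.15 to 0.43 over the alternatives.

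Tfrc, the transferrin receptor that takes up iron, lies at chr16:32608920-32632794 on the plus strand. It had 2.02, 5.61 and 2.32 CPM in the night-restricted replicates, against 11.2, 10.5 and 12.6 CPM in the ad libitum replicates. The groups did not overlap, and the night-restricted values came from 8 to 43 counts. Its log2 difference was -1.73 ± 0.46 (SE, 95% interval -2.64 to -0.81, adjusted p = 0.462), or -1.49 without replicate 1, and it was called by limma voom with quality weights (adjusted p = 0.026). In the same list of heme and iron genes, 9 lay above and 9 below 0 of 18 tested. Slc40a1, the iron exporter ferroportin, was at 0.48 and Hamp2, a hepcidin copy, at 1.5, both with no overlap. The hepcidin gene Hamp averaged 343.5 CPM under night-restricted and 316.5 CPM under ad libitum feeding, with overlap. Hamp was at 0.12 with an interval of -0.60 to 0.84. The transferrin receptor gene Tfr2 and the ferritin gene Fth1 were at 0.14 and -0.09, also with overlap. Alas1, the first enzyme of heme synthesis, is in the xenobiotic list and was at -1.06 with an interval of -2.33 to 0.2.

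Trib3, a pseudokinase of the ATF4 response that binds AKT, had 105.4, 66.8 and 47.3 CPM in the night-restricted replicates, against 31.1, 29.1 and 21.7 CPM in the ad libitum replicates. The groups did not overlap, and the log2 difference was 1.42 ± 0.39 (SE, 95% interval 0.65 to 2.19, adjusted p = 0.559), or 1.08 without replicate 1. Mthfd2, a mitochondrial folate enzyme of the same list, had 2.02, 1.7 and 1.49 CPM under night-restricted and 2.82, 2.16 and 2.22 CPM under ad libitum feeding, with all night-restricted libraries below and a log2 difference of -0.48 (95% interval -1.34 to 0.38). Of 11 genes tested in the ATF4 list, 8 lay above and 3 below 0 with a median of 0.13, which was -0.11 without replicate 1.

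Of 20 ER chaperone and unfolded protein response genes tested, 0 were called, 1 lay above 0 (Herpud1 at 0.41) and 19 below, with a median of -0.37. Without night-restricted replicate 1 there were 2 above and 18 below with a median of -0.28, and with quality weights 7 above and 13 below with a median of -0.10. Only Ern1, the ER stress sensor IRE1, had no overlap, at 17.4, 13.8 and 14.9 CPM in the night-restricted replicates against 23.5, 23.1 and 20.9 CPM in the ad libitum replicates, a log2 difference of -0.55 ± 0.24. Hspa5, the ER chaperone BiP, had 3016, 1591 and 2030 CPM under night-restricted and 3618, 3013 and 2057 CPM under ad libitum feeding, with overlap and a difference of -0.39 (95% interval -0.9 to 0.13). Pdia4 and Hyou1, further ER folding factors, were at -1.13 (-2.63 to 0.37) and -0.86 (-1.81 to 0.08), and Hyou1 was at -0.43 without night-restricted replicate 1. Hspa13, a stress-induced HSP70 relative of microsomes that is in no list, had 7.82, 7.7 and 6.79 CPM under night-restricted and 11.8, 13.7 and 10.4 CPM under ad libitum feeding, with no overlap and a difference of -0.69 ± 0.23.

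Of 16 cytosolic heat shock genes tested, 3 lay above and 13 below 0 with a median of -0.39, and -0.35 without night-restricted replicate 1. Hsp90aa1, the inducible HSP90, had 75.9, 60.0 and 79.0 CPM in the night-restricted replicates, against 140.9, 102.1 and 130.3 CPM in the ad libitum replicates, with no overlap and a log2 difference of -0.80 ± 0.38 (SE, adjusted p = 1). The HSP110 gene Hsph1 and the HSP90 cochaperone gene Chordc1 were at -0.61 and -0.68 with overlap, and Hsph1 was called with quality weights (adjusted p = 0.0202). Hspa1a, an inducible HSP70, was under 1 CPM in all 6 libraries, so its position above the ad libitum libraries rests on few reads. Both cold-inducible RNA-binding proteins lay above: Cirbp had 79.9, 70.7 and 61.6 CPM under night-restricted and 52.5, 53.9 and 40.2 CPM under ad libitum feeding, and Rbm3 had 57.5, 27.9 and 28.0 CPM under night-restricted and 25.1, 26.7 and 17.5 CPM under ad libitum feeding. Neither pair of groups overlapped, and the log2 differences were 0.53 ± 0.3 for Cirbp and 0.70 ± 0.27 for Rbm3. Rbm3 was at 0.29 without night-restricted replicate 1, which held its highest value.

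The core clock showed no call at ZT06. Of 15 genes tested, 10 lay above and 5 below 0 with a median of 0.14, which was 0.29 without night-restricted replicate 1, and their differences ran from -1.07 to 1.23. The interval lay within 1 log2 unit of 0 for 3 of the 15, against 50.8% of all genes. The repressor Nr1d1 had 83.7, 56.9 and 73.3 CPM in the night-restricted replicates, against 56.3, 50 and 25.5 CPM in the ad libitum replicates, the only member with no overlap, with 56.9 CPM in the lowest night-restricted and 56.3 CPM in the highest ad libitum library. Its log2 difference was 0.70 ± 0.53 (SE, 95% interval -0.37 to 1.76). Cry2 had 74.1, 44.9 and 32.8 CPM under night-restricted and 47.4, 30.3 and 21.1 CPM under ad libitum feeding, a difference of 0.62 ± 0.24 that was 0.26 without replicate 1. Per1, Per2, Per3, Cry1 and Nr1d2 were at 0.34, 0.11, 0.47, -0.09 and 0.46. Their intervals all held 0, and without night-restricted replicate 1 they were at 0.32, 0.52, 0.28, -0.26 and 0.29. The activator Arntl was under 3 CPM in all 6 libraries, with 0.252, 0.13 and 1.32 CPM in the night-restricted and 0.563, 0.24 and 2.65 CPM in the ad libitum replicates, and no difference was detectable at this depth.

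Of 12 D-box and output genes tested, 8 lay above and 4 below 0 with a median of 0.16, which ran from -0.21 to 0.48 over the alternatives. Dbp was at 0.59 with an interval of -0.33 to 1.51 and Tef at 0.45 (-0.14 to 1.04), and without night-restricted replicate 1 they were at 0.29 and 0.09. With quality weights 2 of the 12 lay above and 10 below 0. Usp2, a deubiquitinase under clock control, had 33.3, 19.1 and 4.8 CPM in the night-restricted replicates, against 4.17, 20.6 and 3.25 CPM in the ad libitum replicates. Wee1, a cell cycle kinase under clock control, had 15.9, 9.92 and 4.63 CPM under night-restricted and 5.52, 8.29 and 1.71 CPM under ad libitum feeding. Both groups spanned several-fold for both genes and overlapped. Their differences of 1.03 and 0.97 were 0.40 and 0.54 without night-restricted replicate 1 and -0.68 and -0.16 with quality weights.

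Srsf2, an SR protein that recognises exons, had 36.1, 37.7 and 34.4 CPM in the night-restricted replicates, against 57.6, 54.0 and 58.8 CPM in the ad libitum replicates. The gap between the groups was larger than the range within either. edgeR gave a log2 difference of -0.65 ± 0.23 (SE, 95% interval -1.12 to -0.19), and the adjusted p was 1. Srsf6 had 18.7, 22.3 and 18.7 CPM under night-restricted and 22.9, 37.9 and 29.7 CPM under ad libitum feeding, with no overlap and a difference of -0.60. Of 11 SR genes tested, 4 lay above and 7 below 0 with a median of -0.23, and -0.08 without replicate 1. The night-restricted libraries lay below all ad libitum libraries in 3 of the 11 (2.24% of all genes). They lay above them in 1, Tra2a (2.45% of all genes). Tubulin and actin genes had a median of -0.54, with 3 above and 8 below 0 of 11. Among them Tubb2a, a beta-tubulin with a near copy, had 39.6, 102.2 and 177.9 CPM under night-restricted and 211.4, 129.6 and 397.3 CPM under ad libitum feeding, overlapping, with a difference of -1.20 that was -0.81 without night-restricted replicate 1 and -0.15 with quality weights.

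In several lists of basic cell functions most intervals were narrow. The interval lay within 1 log2 unit of 0 for 18 of 20 genes of ER translocation, glycosylation and vesicle traffic, 13 of 14 autophagy and lysosome genes, 16 of 20 ribosome biogenesis genes, 16 of 23 cytosolic ribosomal protein genes, 15 of 19 genes of amino acid catabolism and the urea cycle, and 14 of 20 respiratory chain genes, beside 50.8% of all genes and 74.3% of those averaging 10 CPM or more. Their medians were -0.07, 0.08, 0.01, 0.09, -0.10 and -0.08. Ribosome biogenesis genes had 10 above and 10 below 0, and 3 above and 17 below with a median of -0.22 without night-restricted replicate 1. Ribosomal protein genes had 17 above and 6 below 0, and 10 above and 13 below with a median of -0.01 without it. The acute phase list had 10 above and 10 below 0 of 20 tested with a median of 0.00, and 7 above and 13 below with a median of -0.09 without it. Krueppel-like factors had 10 above and 1 below 0 of 11 with a median of 0.12, which was 0.34 without that library and 0.97 with quality weights. Immediate early genes had 6 above and 5 below 0 of 11 with a median of 0.12. Without that library they had 9 above and 2 below with a median of 0.25, and with quality weights their median was 0.97.

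The 25 genes called by limma voom with library quality weights were 13 higher (0.102%) and 12 lower (0.0944%). That fit weighted the 6 libraries unequally: 0.251, 0.514 and 3.29 for night-restricted replicates 1, 2 and 3, against 0.886, 1.72 and 0.269 for the ad libitum replicates, so night-restricted replicate 3 and ad libitum replicate 2 carried most of it. All 25 had the same direction in edgeR, 21 were at an unadjusted p under 0.05 there, 15 had no overlap between the groups (4.7% of all genes), and 10 averaged 10 CPM or more. These counts were taken over genes chosen by their values. Among them, Npc1, which exports cholesterol from lysosomes, had 95.3, 155.0 and 124.8 CPM in the night-restricted replicates, against 90.9, 71.9 and 66.6 CPM in the ad libitum replicates, with no overlap and a log2 difference of 0.71 ± 0.19 in edgeR (adjusted p = 0.439, and 0.026 with quality weights). Ahsa2, a relative of the HSP90 activator, had 20.2, 18.3 and 13.1 CPM under night-restricted and 26.4, 23.9 and 23.8 CPM under ad libitum feeding, with no overlap and a difference of -0.53 ± 0.17 (adjusted p = 0.9, and 0.00629 with quality weights). Mblac2, a metallo-beta-lactamase domain protein, had 7.82, 11.4 and 6.95 CPM under night-restricted and 15.5, 21.6 and 13.1 CPM under ad libitum feeding, with no overlap and a difference of -0.93 ± 0.24 (adjusted p = 0.357, and 0.00307 with quality weights). Itpripl1 had 11.6, 18.3 and 20.4 CPM under night-restricted and 10.9, 8.05 and 10.3 CPM under ad libitum feeding, with no overlap and a difference of 0.78 ± 0.22 (adjusted p = 0.644, and 0.00629 with quality weights). Calcoco1 and the exosome tetraspanin Cd63 were also called, but their groups overlapped and night-restricted replicate 3 held the highest value, 58.3 and 79.8 CPM.

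Whether the difference at ZT06 departed from that at other times was tested in the same fit. Against the mean of the other 5 times, edgeR called 0 of 12712 genes (0%), with 301 (2.37%) at an unadjusted p under 0.05. Against ZT18, the middle of the dark phase, it called 0 (0%), with 452 (3.56%) at an unadjusted p under 0.05. DESeq2 called 0 in both. With quality weights, limma voom called 16 (0.126%, and 1885 genes, 14.8%, at an unadjusted p under 0.05) and 2 (0.0157%, and 1255 genes, 9.87%, at an unadjusted p under 0.05), the 2 being Ahsa2 and Tfrc. The same comparison of feeding paradigms at the other times called 3 genes at ZT02 (0.0236%), 0 at ZT10, 0 at ZT14, 0 at ZT18 and 1 at ZT22 (0.00787%) with edgeR, and at an unadjusted p under 0.05 gave 855 (6.73%), 539 (4.24%), 794 (6.25%), 467 (3.67%) and 1322 (10.4%) genes.

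**Figure D4:**
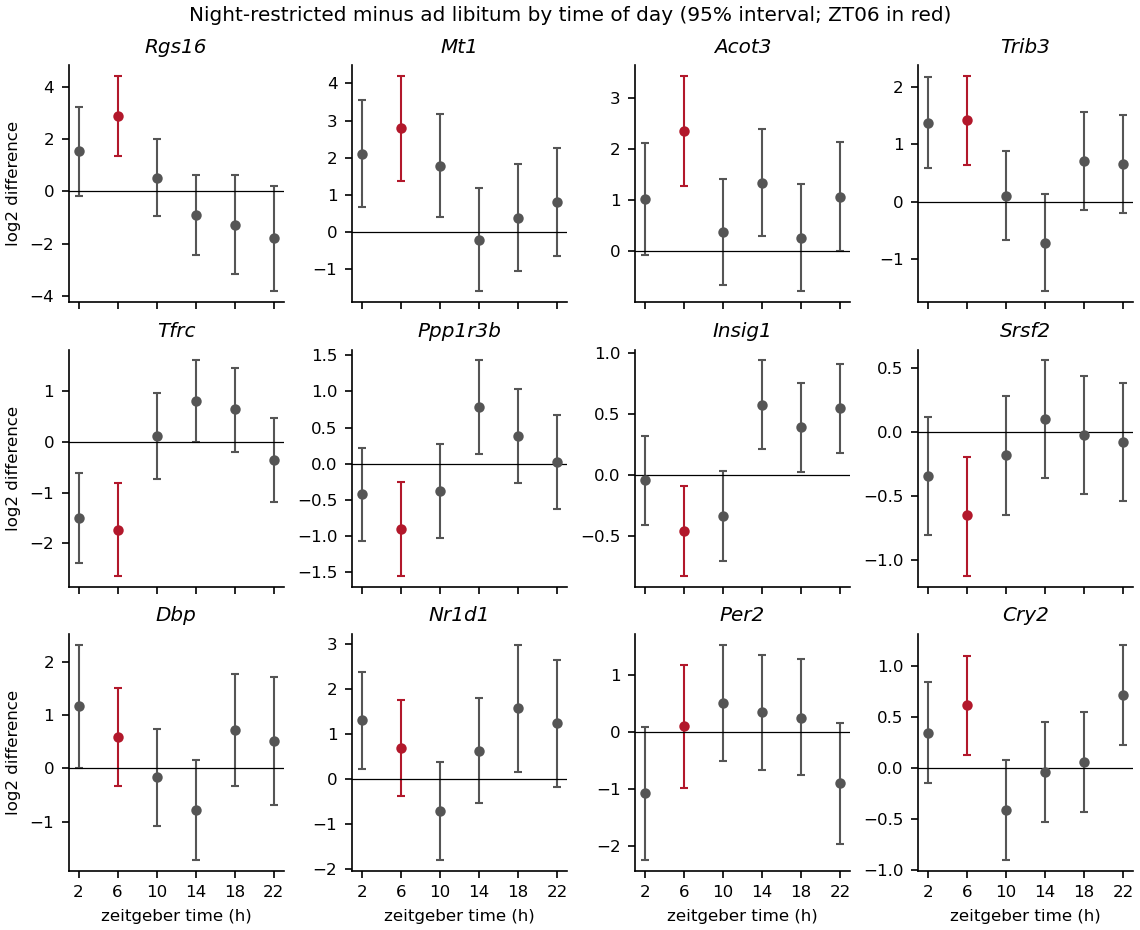
Log2 difference (night-restricted minus ad libitum) of 12 genes at 6 zeitgeber times with its 95% interval, ZT06 in red and the other times in grey. Rgs16 runs from 1.53 at ZT02 and 2.88 at ZT06 to -1.80 at ZT22, Tfrc from -1.50 and -1.73 to 0.80 at ZT14 and 0.64 at ZT18, and the interval of Per2 holds 0 at all 6 times.

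The named genes had different courses over the day, none of which departed at ZT06 past the adjusted threshold in edgeR. For Rgs16 the log2 differences were 1.53, 2.88, 0.52, -0.92, -1.27 and -1.80 in time order from ZT02 to ZT22, and ZT06 departed from the mean of the other times by 3.26 (adjusted p = 1). Its level averaged 132.2 ± 65.3 CPM under night-restricted and 92.0 ± 85.6 CPM under ad libitum feeding at ZT10 (SD, n = 3 each), the highest time in both. In the arrhythmic and incompletely adapted arrhythmic libraries at ZT06 it averaged 43.4 ± 4.07 and 30.3 ± 11 CPM. Mt1 was at 2.10, 2.79, 1.78, -0.21, 0.38 and 0.81, and Mt2 at 2.03, 2.82, 1.87, -1.19, 0.06 and 0.17. Both arrhythmic paradigms at ZT06 had Mt1 at 17.4 ± 4.42 and 17.1 ± 4.25 CPM, near the ad libitum mean of 23.4 ± 10.8 CPM. The log2 difference of Cyp2b9 was above 0 at every time, at 2.64, 4.33, 2.61, 2.64, 1.88 and 2.68, and that of Cyp7b1 was at -0.97, -1.48, 0.23, -1.54, -0.37 and -1.20.

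Tfrc was at -1.50, -1.73, 0.11, 0.80, 0.64 and -0.35 from ZT02 to ZT22, and ZT06 departed from ZT18 by -2.36. Ppp1r3b was at -0.42, -0.90, -0.38, 0.78, 0.39 and 0.03. Insig1 was at -0.04, -0.46, -0.34, 0.57, 0.39 and 0.55. Cpt1a was at 0.32, 0.48, 0.33, 0.04, -0.51 and -0.24. For these 4 genes the sign at ZT06 was not that at ZT18.

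Over the 6318 genes averaging 10 CPM or more, the ZT06 difference correlated with the mean difference at the other 5 times at Pearson r = 0.49. The 2 measures share no library. Night-restricted replicate 1 had one of the 4 highest GC slopes of the series at ZT06 and, among the other times, at ZT02, ZT18 and ZT22. The value of r was 0.00 without night-restricted replicate 1 and 0.33 once the GC slope entered the fit. This r is across genes, which are not independent replicates, and no p is given. The cause of the correlation was not tested. The count at an unadjusted p under 0.05 was 300, 899 and 459 without night-restricted replicates 1, 2 and 3, and 605, 420 and 320 without ad libitum replicates 1, 2 and 3, against 391 with all 6 libraries. The adjusted count was 1 without night-restricted replicate 3, that gene being Acot3, and 0 in the other 5 cases.

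**Figure D5:**
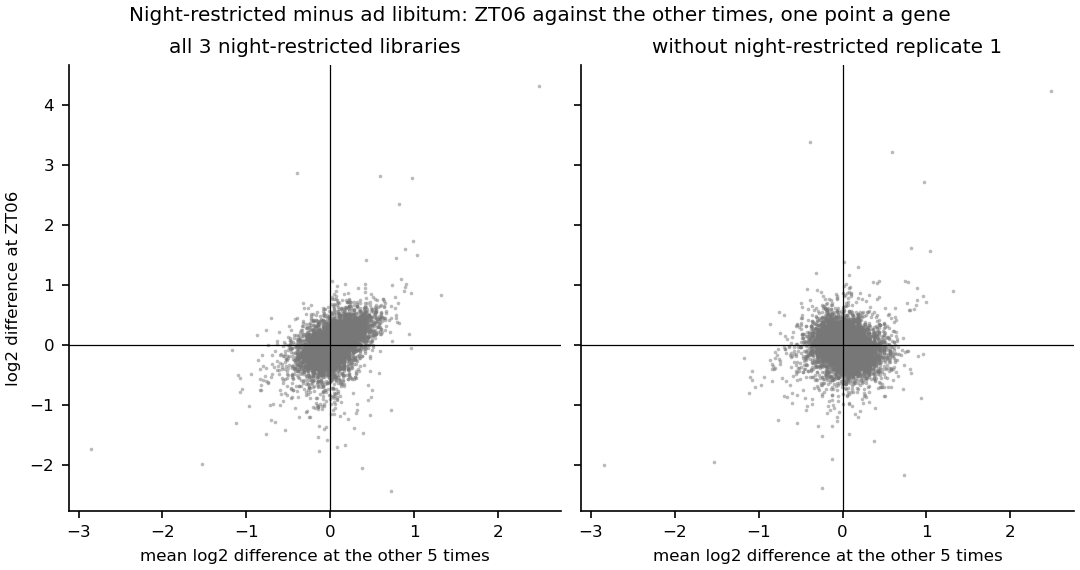
Log2 difference (night-restricted minus ad libitum) at ZT06 against its mean at the other 5 times, 1 point for each of 6318 genes, with all 3 night-restricted ZT06 libraries on the left and without night-restricted replicate 1 on the right. The cloud is tilted on the left (r = 0.49) and not on the right (r = 0.00).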

How the data were processed

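Liver RNA was extracted with TRIzol and made into Lexogen QuantSeq 3′ libraries, per the labels' protocols. The submitters' processing notes list STAR 2.4.2a, and as builds mm10 beside GRCm38.p5; no source used here names the read counter, the strand setting or the annotation. The authors deposited raw counts for 51912 genes in 72 libraries and a second table of 11508 genes, named TPM, whose values equal CPM computed from those counts to within 5.09e-11. Symbols and positions came from GENCODE M21 (GRCm38) for 51633 genes; the 279 without a symbol held 0.0107% of counts. Genes were filtered with filterByExpr, normalised by TMM and fitted with edgeR 4.0.16 (R 4.3.3) quasi-likelihood on 24 group means over all 72 libraries, with Benjamini-Hochberg adjustment at 0.05. Alternatives used DESeq2 1.42.0 and limma 3.58.1 (voom with library quality weights), other scalings and filters, a GC slope over the last 500 transcript bases, a replicate block, and each library left out. Scripts were tested on simulated data. The rule for genes to name took those called, of which there were none, and the first 4 members of each list; most genes described fall outside it and were chosen after their values were seen. The members, lists and tests were chosen with earlier results of these data known. Intervals cover the spread between libraries, and reads carry no stated molecular identifiers. Some genes are not reported here.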

Additional observations from a re-analysis of the deposited data

How the results depend on the processing

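With 3 libraries a group and totals of 7444703 counts or fewer in the night-restricted group, a difference of 1 log2 unit was not bounded for many low genes. The count of genes at ZT06, 0 in edgeR, was 2 with DESeq2, 25 with limma voom and quality weights, 1 with the GC slope and replicate block together (Gm16165), and 2 with only the 6 ZT06 libraries and the replicate block (Cyp2b9 and Mt1); leaving out 1 library gave 0 to 1. The departure from the other 5 times was called for 16 genes with limma voom and 0 when libraries were left out; that from ZT18 for 2 genes with limma voom and 1 (Tuba4a) with the GC slope and replicate block. All other alternatives gave 0. The replicate block over all 72 libraries gave 0 calls at ZT06 and 399 genes at an unadjusted p under 0.05; same-numbered libraries had deviations correlated at 0.74, -0.34 and 0.46, and not every library correlated best with its own number, so the numbers were not taken as pairs. Of 1205 values of 67 genes under 18 alternatives, 1165 kept direction and side, 18 passed the threshold and 22 changed sign in 13 genes; the cause was not tested. With limma voom these were Cyp4a10 -0.01, Pck1 0.65, G6pc 0.06, Srebf1 0.11, Per1 -0.10, Per2 -0.93, Per3 -0.57, Cry1 0.44, Nr1d2 -0.03, Dbp -0.12, Tef -0.33, Usp2 -0.68 and Wee1 -0.16. Per2 and Cry1 were at -0.45 and 0.08 with only the 6 libraries and the block. Leaving out 1 library gave -1.47 to 0.81 for Pck1, -0.46 to 0.01 for G6pc, -1.34 to 0.32 for Srebf1, -1.45 to 0.52 for Per2 and -0.44 to 0.51 for Cry1.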
